A study of Rattus norvegicus with 8 samples.

Results

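The 10 genes described here are Atf4, a stress-responsive transcription factor gene, 3 of its known targets (Asns, Chac1 and Trib3), and 6 genes of serine synthesis and one-carbon transfer (Phgdh, Psat1, Psph, Shmt1, Shmt2 and Mthfd2). They were selected on their measured levels, by sex and beside Atf4, in an earlier look at these same cultures, and were taken by gene symbol from the 32883 genes of the deposited expression table, and all 10 had exactly 1 row. Differences between the sexes and correlations with Atf4 are therefore given for these 10 genes as descriptions, with no p-value. RNA had been sequenced from primary oligodendrocyte precursor cells (OPCs), glia that divide and later mature into the oligodendrocytes that form myelin. Their source was cortex of the cerebrum of male and female Sprague Dawley rats aged 1 to 2 days, and no other factor is labelled, with 4 male and 4 female libraries numbered 1 to 4 in each sex. All cultures started as mixed glia in medium with 20% serum, from which the non-adherent cells were kept for 4 to 5 days in serum-free medium with 2% B27 and with PDGF and FGF at 10 ng/ml each. The labels do not say whether the libraries of a sex derive from different animals or litters, so the spread between them may be technical.

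Atf4 encodes a basic leucine zipper factor whose messenger RNA is present in most cells and is translated more when the initiation factor eIF2 alpha is phosphorylated, as happens on amino acid shortage or endoplasmic reticulum stress. Its messenger RNA level is thus only 1 of the layers at which it is controlled. Among the genes known to be bound by ATF4 are those that make serine from a glycolytic intermediate, those that move the one-carbon unit of serine onto folate, and amino acid transporters and tRNA synthetases. Dividing cells draw on the one-carbon units for purines and thymidylate, and cells of the oligodendrocyte lineage also use serine for sphingolipids.

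Values are the authors' FPKM, fragments scaled by transcript length and by library size, which allows levels of different genes to be compared per length. How many reads each library held is unknown. Steps between the lowest values gave their depth relative to the library male 1, from 0.553 to 1 in male and from 0.303 to 0.984 in female libraries. The Y-linked genes Eif2s3y and Kdm5d followed the sex labels, with 62.7 to 77.9 and 7.65 to 8.67 FPKM in male libraries, and both were listed at 0 in all 4 female libraries. OPC markers were abundant in both sexes, with Pdgfra averaging 229 ± 10.4 FPKM in male and 303 ± 27.8 FPKM in female cultures (SD, n = 4 each), while fibroblast and vascular markers together reached at most 2.79 FPKM in male and 2.84 FPKM in female libraries. Male 1 and female 3 departed alike from the mean of their sex (r = 0.342 across 8390 genes, which do not count as replicates), and results are also given without them where that changes a call or a direction among the 10 genes or in a pathway list. Each difference is the male mean minus the female mean of log2(FPKM + 1), and its standard error comes from a limma-trend fit to the 11263 genes averaging 1 FPKM or more. Called means here that the Benjamini-Hochberg adjusted p over those genes fell under 0.05. For the 10 genes a call, or its loss in another setting, only describes the fit and is no test, since it rests on the values they were selected on.

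**Figure D1:**
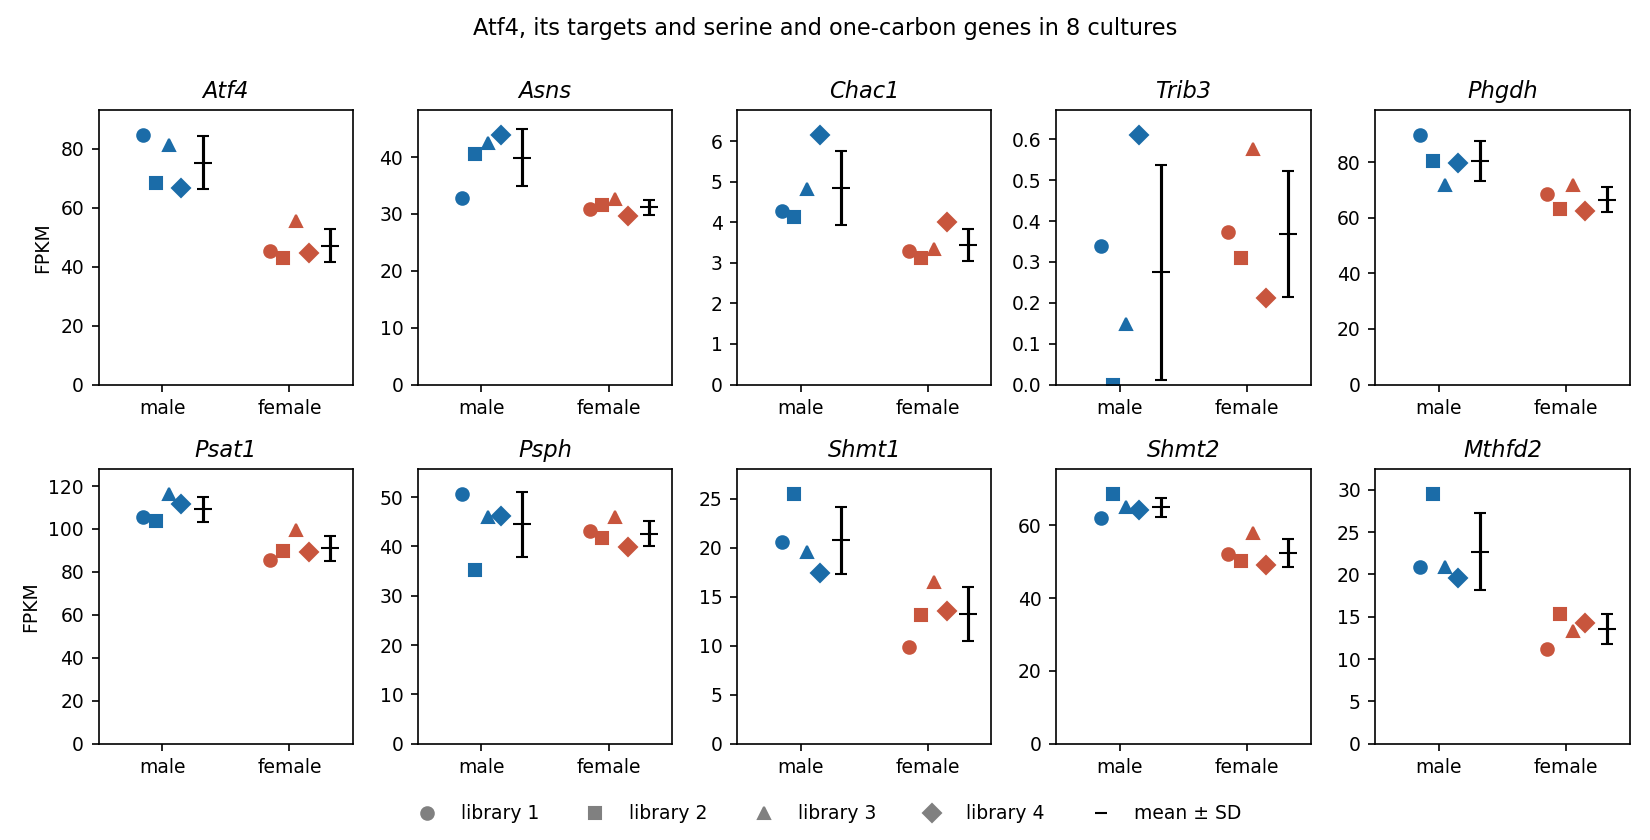
Level of each of the 10 genes (vertical axis, FPKM, from 0) in the 4 male and 4 female cultures. Each symbol is 1 library, and the bars give the mean and SD. In 7 of the 10 panels all male cultures lie above all female ones, while those of Phgdh, Psph and Trib3 overlap.

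Atf4 and Mthfd2 had the largest differences of the 10 genes. Atf4 (ENSRNOG00000017801) stood at 84.5, 68.5, 81.2 and 66.5 FPKM in male 1 to male 4, against 45.4, 42.8, 55.4 and 44.5 FPKM in female 1 to female 4. The lowest male culture lay above the highest female one, and male cultures averaged 1.60 times the female level (75.2 ± 9.02 against 47.0 ± 5.65 FPKM, SD, n = 4 each). On the log2 scale the difference was 0.66 ± 0.10 (SE). Atf4 was called, and its difference was 0.61 to 0.74 with 1 library left out and 0.69 without both male 1 and female 3. These are bulk cultures, so more cells of a type and more RNA per cell cannot be told apart here or below.

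Asns, which encodes the synthetase that makes asparagine from aspartate and glutamine, is a classical target of ATF4. It stood at 32.8, 40.6, 42.5 and 43.9 FPKM in male 1 to male 4, against 30.9, 31.6, 32.7 and 29.6 FPKM in female 1 to female 4. Male 1 lay just above female 3, and the other male cultures stood well clear of all female ones. The difference of 0.34 ± 0.10 was not called, but it was 0.43 and called without male 1, and 0.45 and called without both male 1 and female 3. So male 1, the culture with the most Atf4, had the least Asns of the male cultures.

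Chac1 encodes an enzyme that degrades glutathione and is induced through ATF4 under stress. It was low, at 4.28, 4.13, 4.82 and 6.14 FPKM in male 1 to male 4, against 3.29, 3.11, 3.34 and 4.01 FPKM in female 1 to female 4. The sexes did not overlap, though male 2 and female 4 were nearly level, and the difference of 0.39 ± 0.15 was not called. Trib3, whose pseudokinase product is a stress-induced inhibitor of ATF4 and AKT, was close to silent. Its values were 0.340, 0, 0.147 and 0.610 FPKM in male 1 to male 4, against 0.373, 0.309, 0.577 and 0.212 FPKM in female 1 to female 4. The sexes overlapped throughout, and Trib3 was the 1 gene of the 10 with a mean under 1 FPKM, so it was not tested. Trib3 and Chac1, the stress-induced members, were thus at the bottom of the range in cultures where Atf4 itself was among the more abundant of the 10.

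The promoters of Chac1 and Trib3 are shown because they alone of the 10 held a match to the ATF4 motifs searched. Windows of 300 bases, from 250 before to 50 after the start in the RefSeq table (build GRCr8), were read for all 10 genes, and the start used there can be that of 1 transcript among several. TGATGNAA, the core of the composite C/EBP-ATF element, was found in 2 of the 10 windows, against 3.98% of 33469 windows of all genes. Its variant TGACGNAA was found in 1 of the 10, against 1.97% of all windows, and the palindromic CREB site TGACGTCA in 0 of the 10, against 1.83%. Both strands were searched, and the first motifs cannot overlap at the same place on 1 strand since they differ at a fixed base. In Chac1 (chr3:126795881-126796180, + strand) the matches lay 224 to 217 and, on the opposite strand, 167 to 160 bases before the start. In Trib3 (chr3:161275484-161275783, - strand) the match was on the opposite strand, 21 to 14 bases before the start. The sequences run 5′ to 3′ on the strand of the gene, and capitals mark the matches.
Chac1: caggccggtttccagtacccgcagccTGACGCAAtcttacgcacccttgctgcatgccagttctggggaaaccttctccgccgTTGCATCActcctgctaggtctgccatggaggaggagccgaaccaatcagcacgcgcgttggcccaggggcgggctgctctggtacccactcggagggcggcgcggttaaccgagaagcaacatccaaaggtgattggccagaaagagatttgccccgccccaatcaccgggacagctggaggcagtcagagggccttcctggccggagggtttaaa
Trib3: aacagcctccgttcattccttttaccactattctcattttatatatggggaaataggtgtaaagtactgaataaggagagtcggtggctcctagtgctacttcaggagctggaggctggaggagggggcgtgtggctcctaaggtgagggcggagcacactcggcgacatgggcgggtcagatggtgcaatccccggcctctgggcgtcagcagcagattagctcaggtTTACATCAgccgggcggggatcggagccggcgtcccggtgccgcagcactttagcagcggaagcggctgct
A match is a stretch of letters and not a site shown to be bound. Chac1 and Trib3 had these matches and the lowest levels of the 10 genes, and Atf4, Asns and the enzyme genes had none in this window. A link between matches and levels was not tested, and matches outside the window were not searched for.

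The enzymes of serine synthesis were among the most abundant of the 10 in both sexes, and differed less between them than Atf4 did. Phgdh encodes the dehydrogenase that starts the pathway from 3-phosphoglycerate. It stood at 89.7, 80.3, 71.8 and 79.7 FPKM in male 1 to male 4, against 68.6, 63.1, 71.9 and 62.3 FPKM in female 1 to female 4. Male 3 and female 3 were level, and the difference of 0.27 ± 0.08 was not called under any setting tried. Psat1 encodes the aminotransferase of the next step. It stood at 105, 104, 116 and 111 FPKM in male 1 to male 4, against 85.6, 89.7, 99.3 and 89.3 FPKM in female 1 to female 4. All male cultures were higher, and the difference of 0.26 ± 0.07 was called. That call lay close to the threshold. Leaving out any 1 library other than female 3 ended it (differences of 0.23 to 0.29), as did either rescaling of the libraries (0.24 and 0.26).

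Psph encodes the phosphatase that releases free serine, and it was the enzyme gene of the 10 with the smallest difference. It stood at 50.5, 35.2, 45.9 and 46.1 FPKM in male 1 to male 4, against 43.1, 41.6, 45.9 and 39.8 FPKM in female 1 to female 4. Male 1 was the highest and male 2 the lowest of all 8 cultures, so the male cultures spanned the female range. The difference of 0.05 ± 0.11 was not called, and its sign turned without male 1 (-0.015) and when relative depth entered the fit (-0.017). Within the pathway, the ratio of Psat1 to Phgdh levels was 1.37 ± 0.188 in male and 1.37 ± 0.0850 in female cultures, and that of Psat1 to Psph was 2.49 ± 0.353 in male and 2.14 ± 0.108 in female cultures.

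Shmt1 and Shmt2 encode the cytosolic and the mitochondrial serine hydroxymethyltransferase, which split serine into glycine and a folate-bound one-carbon unit. Shmt1 stood at 20.6, 25.5, 19.6 and 17.4 FPKM in male 1 to male 4, against 9.84, 13.1, 16.5 and 13.6 FPKM in female 1 to female 4. Male cultures averaged 1.57 times the female level without overlap, although male 4 and female 3 were close. The difference of 0.62 ± 0.15 was called, but not once any 1 library other than female 3 was left out (0.49 to 0.69). Shmt2 stood at 62.2, 68.6, 65.2 and 64.1 FPKM in male 1 to male 4, against 52.3, 50.1, 57.9 and 49.2 FPKM in female 1 to female 4. It varied little among male cultures (4.12% coefficient of variation), and the sexes did not overlap. Its difference of 0.31 ± 0.07 was called, but not after male 2, male 3, male 4 or female 1, female 2, female 4 was left out in turn (0.28 to 0.31). Shmt2 was the more abundant form in every culture, by 3.18 ± 0.422 times in male and 4.07 ± 0.840 times in female cultures, with overlapping ranges (2.69 to 3.68 against 3.51 to 5.31).

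Mthfd2 encodes a mitochondrial enzyme that oxidizes the folate-bound unit made by SHMT2, and is known as a gene of dividing and embryonic cells. It stood at 20.8, 29.5, 20.9 and 19.6 FPKM in male 1 to male 4, against 11.2, 15.3, 13.4 and 14.3 FPKM in female 1 to female 4. Male 2 was far above the other male cultures, all of which were above every female one. Male cultures averaged 1.68 times the female level, and the difference of 0.70 ± 0.14 was called. It was 0.57 without male 2 and 0.61 to 0.76 without each other library.

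Of the 9 genes tested, 5 were called, each higher in male cultures (Atf4, Psat1, Shmt1, Shmt2 and Mthfd2), and 0 were called as higher in female cultures. Among all 11263 tested genes, 6.04% were called, 3.14% as higher in male and 2.89% as higher in female cultures. All 9 had a positive difference, against 49.3% of all tested genes, with a median of 0.34 against -0.0038 for all. In 7 of the 9 all male cultures lay above all female ones, which held for 7.26% of all tested genes, while all female cultures lay above all male ones in 0 of the 9, against 6.77% of all tested genes. Nothing is read from these counts, since the genes were put together with the values in view. The count of called members was 2 without male 2, male 3, male 4, female 1, female 2 or female 4 in turn, and 6 without both male 1 and female 3. Over all genes, 680 were called. Leaving out male 1 gave 710, male 2 gave 314, male 3 gave 298 and male 4 gave 364. Leaving out female 1 gave 401, female 2 gave 513, female 3 gave 803 and female 4 gave 316. Without both male 1 and female 3, 880 were called.

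**Figure D2:**
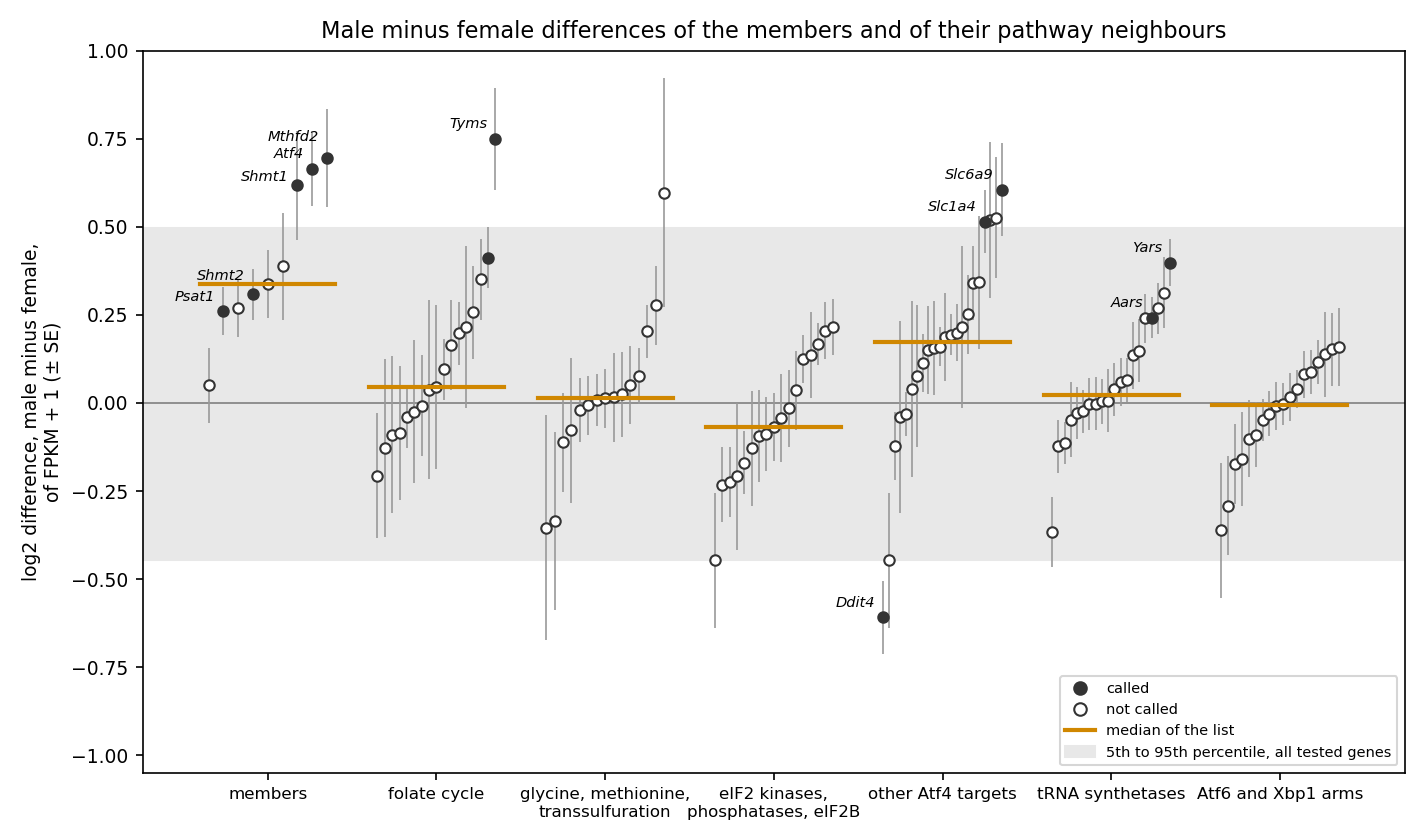
Male minus female difference (vertical axis, log2 scale of FPKM + 1, with SE) of the tested members and of the tested genes of 6 lists from the same pathways. Filled circles are called genes, most of them named, open circles are not called, orange lines are list medians, and the grey band runs from the 5th to the 95th percentile of all tested genes (-0.45 to 0.50). Members lie above 0, the called ones from 0.26 to 0.70, while most other lists are centred near 0.

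The order of the levels per length, over all 8 cultures, was Psat1, Phgdh, Atf4, Shmt2, Psph, Asns, Mthfd2, Shmt1, Chac1 and Trib3, with means of 100.05 FPKM for Psat1 and 0.321 FPKM for Trib3. Psat1 exceeded Phgdh in 8 of 8 cultures, Shmt2 exceeded Psph in 8 of 8, and Asns exceeded Mthfd2 in 8 of 8. Some neighbours could not be ranked. Atf4 exceeded Shmt2 in 3 of 8 cultures, all of them male, and its mean was above that of Shmt2 in male cultures (75.2 against 65.0 FPKM) and below it in female ones (47.0 against 52.4 FPKM), and Mthfd2 exceeded Shmt1 in 7 of 8 with means of 18.1 and 17.0 FPKM and overlapping ranges. The 10 genes summed to 456 to 471 FPKM in male and 347 to 397 FPKM in female cultures.

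Atf4 and the other 9 genes were also compared culture by culture. The sexes form separate groups for Atf4, so no correlation is given over the pooled cultures. After each culture's deviation was taken from the mean of its own sex, the r with Atf4 was 0.63 for Psph, 0.53 for Psat1, 0.44 for Phgdh, 0.37 for Shmt2 and 0.32 for Shmt1. It was negative for Asns (-0.31), Chac1 (-0.31) and Mthfd2 (-0.29), and 0.21 for Trib3. Spearman rho within sex ran from -0.29 for Asns to 0.60 for Psph. Male 1 and female 2 were the cultures farthest from the pooled median of Atf4. Without them, the r of the same deviations was 0.75 for Psat1, 0.57 for Shmt2, 0.54 for Psph and 0.37 for Shmt1. Phgdh was then at 0.17, Trib3 at 0.14, Asns at 0.13, Mthfd2 at -0.14 and Chac1 at -0.32. These deviations were not taken anew from the means of the remaining cultures, so the values are not strictly within sex. Female 3, with the largest Atf4 deviation from its own sex (0.24), was kept. The median within-sex r over the 9 genes was 0.32, and it was -0.13 without female 3 and -0.16 without both male 1 and female 3.

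For the 6416 genes averaging 10 FPKM or more, the within-sex r with Atf4 had a median of 0.069 and lay between -0.68 and 0.75 from the 5th to the 95th percentile. Of the 7 members at that level, Psph stood highest, at percentile 88.3 of that distribution, with Psat1 at 82.3 and Asns lowest at 26.3. With 4 cultures a sex these correlations are weak descriptions. The pattern of Mthfd2 was closest to that of Shmt1 (within-sex r = 0.76) and opposite to that of Psph (-0.79). Male 2 had the most Mthfd2, Shmt1 and Shmt2 and the least Psph of the male cultures, and female 1 had the least Mthfd2 and Shmt1 of all 8.

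**Figure D3:**
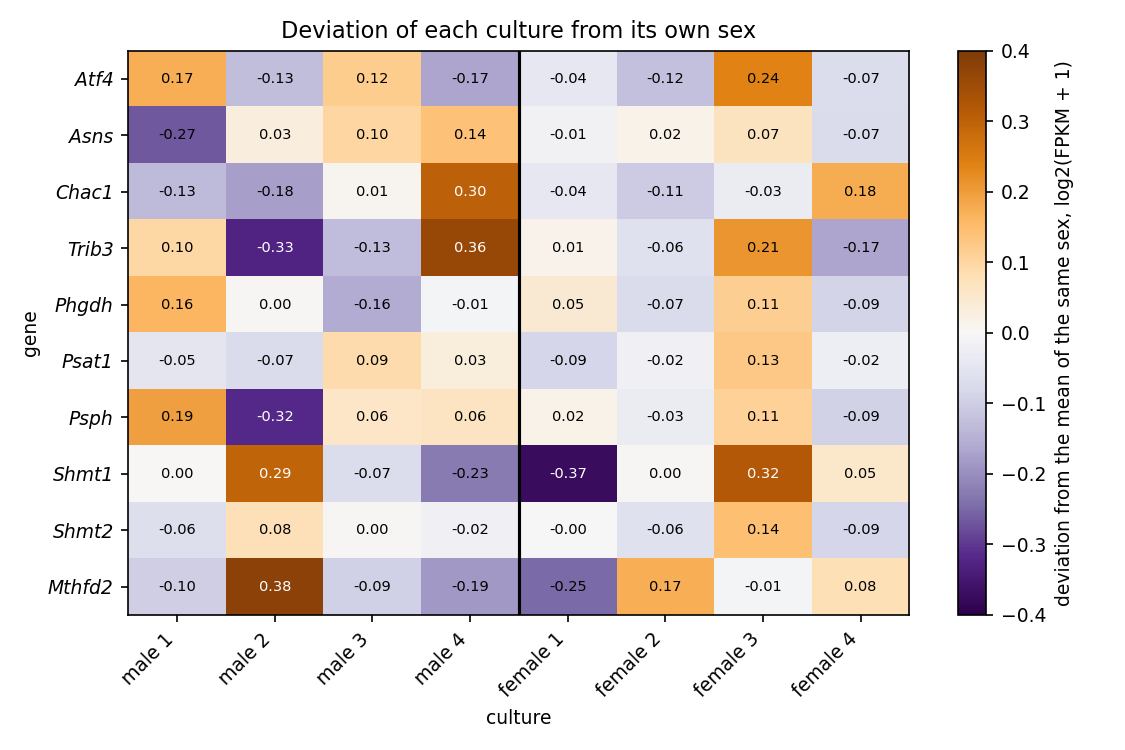
Deviation of each culture (columns, male then female) from the mean of its own sex on the log2(FPKM + 1) scale (colour and printed value) for the 10 genes (rows). Atf4 is high in male 1, male 3 and female 3, Psph and Trib3 are low in male 2, where Mthfd2 and Shmt1 are high, and Asns is low in male 1.

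The 5 genes whose within-sex pattern was most like that of Atf4, of 6416 ranked, were in none of the pathway lists used here. Those lists hold only 107 tested genes, so nothing is read from this. An r over 0.7 was found for 7.79% of the ranked genes, and the values below are the extreme of that ranking. Among the 5 highest were Ctnnbl1 (within-sex r = 0.96 over 8 cultures), which encodes a splicing-associated protein, Smim7 (0.95), Ube2v2 (0.95), which encodes a ubiquitin-conjugating enzyme variant, and Ccdc28b (0.95). None of these 4 was called between the sexes, against 6.04% of all tested genes. The level of Atf4 also ran with the depth of the libraries. Those of these 4 genes did too, which is no separate result, since they were picked for their likeness to Atf4. The within-sex r with log2 relative depth was 0.85 for Atf4 and 0.85 for Ctnnbl1, and 3.30% of the 6416 genes had a higher value than Atf4. For the other members it was 0.64 for Psat1, 0.60 for Shmt1, 0.48 for Psph, 0.39 for Phgdh, 0.36 for Shmt2, 0.27 for Trib3, -0.04 for Mthfd2, -0.06 for Chac1 and -0.24 for Asns. At a relative depth of 1 in male 1 and 0.984 in female 3, Atf4 stood at 84.5 and 55.4 FPKM. At 0.553 and 0.558 in male 2 and male 4 and 0.535 in female 4, it stood at 68.5, 66.5 and 44.5 FPKM. These are single libraries, and the part of depth in the difference was not tested. With relative depth as a covariate the difference of Atf4 was 0.55 and that of Mthfd2 was 0.70, and those of Psat1 (0.22), Shmt1 (0.49) and Shmt2 (0.28) were not called.

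**Figure D4:**
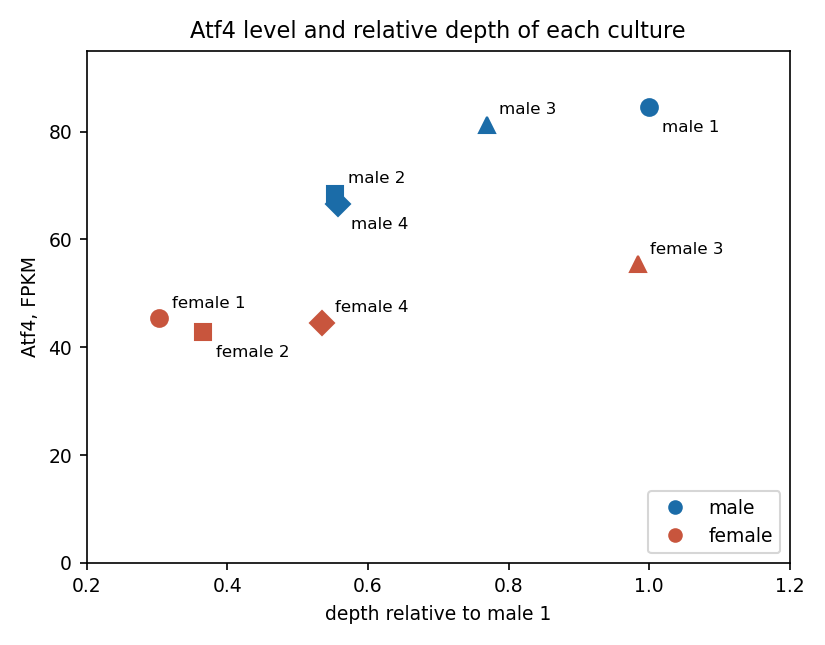
Atf4 level (vertical axis, FPKM, from 0) against relative library depth, with male 1 set to 1 (horizontal axis). Each point is 1 library. Male 1 and male 3, the deepest male libraries, and female 3, the deepest female one, have the highest Atf4 of their sex.

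Genes that work beside the 10 were taken from lists written from textbook knowledge, but with earlier results of these data known. Calls and p-values in these lists therefore describe the fit and are no independent tests. Of 107 tested genes in 6 lists, 6 were called as higher in male and 1 as higher in female cultures, a share of 6.54% that is near the 6.04% of all tested genes. Without male 4, and likewise without female 4, 4 of these genes were called. The folate cycle had 2 called genes of 17 tested, both higher in male cultures, and a median difference of 0.046. Tyms, the thymidylate synthase gene, stood at 24.5, 37.9, 41.4 and 37.6 FPKM in male 1 to male 4, against 18.9, 21.6, 21.6 and 18.9 FPKM in female 1 to female 4 (0.75 ± 0.15, limma-trend adjusted p = 0.0132). Male 1 was the lowest of the male cultures and still above all female ones. Its product makes thymidylate for DNA.

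DNA replication genes had a positive difference in 17 of 17 tested genes, against 49.3% of all tested genes (median difference 0.55). Of them 15 were called as higher in male cultures, against 3.14% of all tested genes. This list was added with its difference already known, so its counts are no test. The part of cell division in the levels of the one-carbon genes was not tested. The closest relatives of Mthfd2 were not called. Mthfd1l, which encodes a mitochondrial enzyme of the following step, stood at 13.8 ± 1.39 FPKM in male and 10.6 ± 1.25 FPKM in female cultures (0.35 ± 0.12, limma-trend adjusted p = 0.104). Mthfd1, the cytosolic form, stood at 41.4 ± 3.74 and 36.0 ± 2.92 FPKM (0.20 ± 0.09, adjusted p = 0.232), and Mthfd2l at 5.13 ± 0.145 and 5.23 ± 0.943 FPKM (-0.0081 ± 0.14, adjusted p = 0.982). These 3 were named after their values were seen.

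Calls among known targets of ATF4 outside the 10 genes went in both directions. Of 22 tested, 2 were called as higher in male cultures (3.14% of all tested genes) and 1 as higher in female cultures (2.89%). A positive difference was found in 17, against 49.3% of all tested genes, and a negative one in 5. The list median was 0.17. An unadjusted limma-trend p under 0.05 was found for 11 of the 22. No share of all tested genes is given for the unadjusted p, so nothing is read from such counts here or below. The sexes did not overlap in 8, against 14% of all tested genes. Male cultures were above in 7 (7.26% of all tested genes) and female cultures above in 1 (6.77%). Without both male 1 and female 3, and also without male 1 or female 3 alone, 3 were called as higher in male and 1 as higher in female cultures. Without male 2, male 4 or female 4, 1 was called in each direction. Both male-higher genes encode carriers of amino acids of this pathway. Slc1a4, the gene of a carrier of alanine, serine and cysteine, stood at 24.7, 25.2, 29.0 and 25.4 FPKM in male 1 to male 4, against 17.3, 17.9, 19.8 and 16.8 FPKM in female 1 to female 4 (0.51 ± 0.09, limma-trend adjusted p = 0.00828). Slc6a9, which encodes the glycine transporter GlyT1, stood at 12.1, 13.3, 11.2 and 14.4 FPKM in male 1 to male 4, against 7.02, 8.90, 9.44 and 6.87 FPKM in female 1 to female 4 (0.61 ± 0.13, limma-trend adjusted p = 0.0221). All male cultures were higher for both carriers, and leaving out male 2, male 4, female 1 or female 4 ended the call of Slc6a9 (0.54 to 0.59, adjusted p up to 0.0732).

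Ddit4, which encodes an inhibitor of mTORC1 that responds to stress, glucocorticoids and low oxygen, was the target called as higher in female cultures. It stood at 48.0, 39.1, 36.2 and 46.0 FPKM in male 1 to male 4, against 62.0, 70.6, 57.7 and 69.3 FPKM in female 1 to female 4 (-0.61 ± 0.10, limma-trend adjusted p = 0.00759). The groups did not overlap, and Ddit4 kept its call under each of the 18 other settings. Ddit3, the CHOP gene of the stress response, stood at 6.20 ± 1.44 FPKM in male and 6.24 ± 2.36 FPKM in female cultures (0.039 ± 0.25, limma-trend adjusted p = 0.952), and the glutamate-cystine exchanger gene Slc7a11, at 0.369 ± 0.138 and 0.350 ± 0.0859 FPKM, was too low to be tested. Both were named after their values were seen.

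Of 20 cytosolic aminoacyl-tRNA synthetase genes, 2 were called (10%, against 6.04% of all tested genes). Both were higher in male cultures, as were 3.14% of all tested genes by the same call. Among the list, 6 had an unadjusted p under 0.05 in limma-trend, and the median difference was 0.023. Without male 1, and likewise without both male 1 and female 3, 3 were called as higher in male and 1 as higher in female cultures. Over all 11263 tested genes, those settings called 710 and 880. Nothing is read from these counts. Of the 20, 1 was also called as higher in female cultures under quantile normalization, with a minimum mean of 5 FPKM and with relative depth as a covariate. Qars, for glutamine and named after its values were seen, averaged 41.6 ± 4.81 FPKM in male and 53.7 ± 5.38 FPKM in female cultures (-0.37 ± 0.10, limma-trend adjusted p = 0.0553), with all female cultures above all male ones. Yars, for tyrosine, stood at 55.0, 57.3, 57.7 and 53.9 FPKM in male 1 to male 4, against 41.1, 41.0, 45.02 and 41.8 FPKM in female 1 to female 4 (0.40 ± 0.07, limma-trend adjusted p = 0.00692). Aars, for alanine, averaged 105 ± 3.34 FPKM in male and 88.6 ± 2.93 FPKM in female cultures (0.24 ± 0.06, limma-trend adjusted p = 0.0357), and was not called once male 2, male 3, male 4 or any female library but female 3 was left out (0.22 to 0.25, adjusted p up to 0.115). Sars, for serine itself and named after its value was seen, was at 134 ± 5.84 FPKM in male and 136 ± 5.23 FPKM in female cultures (-0.024 ± 0.060, adjusted p = 0.869).

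With every library in the fit, no call was made among the genes upstream of Atf4 or in neighbouring stress pathways. Of all tested genes 6.04% were called, so few calls would fall in lists of this size. Nothing is read from the absence of calls. In limma-trend 0 of 17 genes of the eIF2 alpha kinases, phosphatases and eIF2B were called, 5 had an unadjusted p under 0.05, and the median difference was -0.068. Without female 3, and likewise without both male 1 and female 3, 1 of these 17 was called as higher in male cultures. The same fit called 0 of 18 genes of the ATF6 and XBP1 arms of the unfolded protein response, with 0 at an unadjusted p under 0.05 and a median of -0.0057. Of 15 tested genes of glycine cleavage, the methionine cycle and transsulfuration, 0 were called, 2 had an unadjusted p under 0.05 and the median was 0.013, and without female 3 1 was called as higher in male cultures. The same list held 5 genes listed at 0 in all 8 cultures, among them Cbs, the gene of the enzyme that starts transsulfuration from serine.

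Markers of other cells differed between the same cultures. Of all tested genes, 3.14% were called as higher in male and 2.89% as higher in female cultures. Of 15 tested microglia and macrophage markers, 12 were called, all higher in female cultures, and 0 had a positive difference. Their summed level was 68.9 to 88.1 FPKM in male and 206 to 255 FPKM in female cultures. Of 15 tested neuron markers 10 had a positive and 5 a negative difference, and 5 were called, all as higher in male cultures. Gad1 was among the called ones (19.2 ± 1.77 against 3.93 ± 1.12 FPKM). The list's summed level overlapped, at 376 to 413 FPKM in male and 340 to 467 FPKM in female cultures. Slc17a7 and Eno2 of that list were listed at 0 in all 8. Astrocyte markers, of interest since astrocytes make serine, had 0 of 10 called by limma-trend with 4 at an unadjusted p under 0.05, and summed to 347 to 385 FPKM in male and 342 to 379 FPKM in female cultures. OPC markers had 5 of 10 called, all higher in female cultures, and summed to 2235 to 2387 FPKM in male and 2707 to 2996 FPKM in female cultures. Markers of differentiating cells had 4 of 12 called as higher in female cultures. Of these 12, 7 had a negative and 5 a positive difference, with a median of -0.079. Their sums, which abundant genes dominate, were 746 to 887 FPKM in male and 1013 to 1202 FPKM in female cultures. The part of these cells in the values of the 10 genes was not tested.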

How the data were processed

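RNA was measured in 8 libraries of cultured rat oligodendrocyte precursor cells, 4 male and 4 female by their titles. Per the labels, total RNA went into strand-specific Agilent SureSelect libraries. The authors deposited FPKM values, 1 per gene and library, per the file headers. Per the submitters' processing notes, Trimmomatic and FastQC were used. Aligner, quantifier, build and annotation: not given in the sources used here. Since FPKM is scaled to each library's total, abundant genes that gain lower the rest, and it holds no counts, so no interval from counts was given.

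Values were taken as log2(FPKM + 1). The 11263 of 32883 genes averaging 1 FPKM or more were fitted in R 4.3.3 by limma 3.58.1 (trended prior variance, robust), and p-values adjusted by Benjamini-Hochberg at 0.05. The fit was tested on simulated data. Relative depth came from the most frequent ratio to male 1 among genes above 0 in at most 4 libraries. The members and lists were chosen with earlier results of these data known, and the lists other than DNA replication were written from general knowledge. Named are the 10 members, called genes of the wider lists (at most 4 a list), the 5 genes most like Atf4, and set marker and Y-linked genes. Genes named outside this are marked, and 2 genes that the rule names are not reported here. Alternatives were 2 pseudocounts, 2 filters, 2 scalings, the replicate number as a block, relative depth as a covariate, no robust moderation, each library left out, and male 1 and female 3 left out. Genome positions are given for promoters only, in GRCr8.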

Additional observations from a re-analysis of the deposited data

Results flagged for a closer look

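Among 40 groups of 4 values examined (10 members, 6 called genes of the wider lists and 4 of the genes most like Atf4, in each sex), 2 held a library far from the others, where chance gives about 1 in 20. For Mthfd2, male 2 was at 29.5 FPKM and the other male cultures at 19.6 to 20.9 FPKM. For Slc1a4, male 3 was at 29.0 FPKM and the other male cultures at 24.7 to 25.4 FPKM. Both genes differed between the sexes in the same direction without the library concerned.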

How the results depend on the processing

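Tyms, Ddit4, Slc1a4 and Yars, from lists chosen with earlier results known, kept their direction and their call under all 18 alternatives. The difference of Atf4 was 0.55 to 0.74 over these alternatives and that of Mthfd2 0.57 to 0.76, given as a description since both were selected on these values. Psph turned to -0.015 without male 1, ranged up to 0.16 without male 2, and turned to -0.017 with relative depth as a covariate. The number of called genes was 680, and 298 to 803 with 1 library left out. Called members numbered 5, and 2 to 5 with 1 library left out. For the wider lists the count was 7, and 4 to 10 with 1 library left out. With the replicate number as a block, 397 genes, 2 members and 4 genes of the wider lists were called. Deviations of same-numbered cultures had r = -0.11, 0.13, -0.15 and 0.069 for numbers 1 to 4, and the number was not treated as a pairing in the main fit. These values cannot exclude a pairing, since deviations from a sex mean depend on each other. The labels do not settle it. With relative depth as a covariate, 367 genes and 2 members were called. With no filter on low values, 15938 genes were tested and 3 members were called. Without both male 1 and female 3, 11 genes of the wider lists were called, and the median within-sex r of members with Atf4 was -0.16. That median was 0.32 over all cultures and -0.13 to 0.45 with 1 library left out. The cause of these changes between settings was not tested. No counts are given with the values, so what depth limits is unknown in absolute terms, and Trib3 and Chac1, as the lowest, are the least certain.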
